A study of Mus musculus with 8 samples.

Results

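The contactins and the L1 family are a pair of related groups of immunoglobulin cell adhesion molecules. The members were taken by gene symbol: Cntn1, Cntn2, Cntn3, Cntn4, Cntn5 and Cntn6 are the 6 contactins, and L1cam, Nrcam, Chl1 and Nfasc are the 4 genes of the L1 family. These 10 genes are 10 of the 48709 in the count tables, and all 10 were among the 16287 genes that passed the filter on low counts and were tested. RNA was from whole mouse cortex at postnatal day 1 (P1), on a C57BL6/J background, with 4 libraries from control and 4 from dcKO_Nex-Cre cortex. The control animals carried 1 floxed copy each of BAF155 (Smarcc1) and BAF170 (Smarcc2), both fl/+, and no Cre. In the dcKO_Nex-Cre animals both copies of both genes, which encode scaffold subunits of the BAF chromatin remodeling complex, were floxed and deleted by Nex-Cre. This Cre is active in postmitotic projection neurons, so glia, interneurons, progenitors and vessels of the same tissue keep both genes.

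Contactins carry immunoglobulin and fibronectin type III domains and are held on the outer face of the membrane by a lipid (GPI) anchor, with no cytoplasmic part of their own. L1 family proteins have a similar outer part, but cross the membrane and bind ankyrin, which ties them to the spectrin and actin skeleton. Both groups act in axon growth, fasciculation, guidance and synapse formation, and bind one another, the contactin-associated (Caspr) proteins, receptor phosphatases and the extracellular matrix. The comparison asked how their transcripts differed between a cortex whose projection neurons had lost the BAF scaffold subunits and a control cortex.

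Cntn6 had the largest difference of the 10, a lower level in dcKO_Nex-Cre at 57.4% of the control mean, yet it did not pass the test after adjustment over all genes. Cntn5 was at 126% of control, and the other 8 members lay closer to their control levels. By edgeR's quasi-likelihood test, 0 of the 10 members had an adjusted p under 0.05, where 144 of all genes tested did (0.884%). At an unadjusted p under 0.05 there were 2, Cntn6 lower and Cntn5 higher, and the share over all genes tested was 13.6%. The estimate was below 0 for 8 members and above 0 for 2, with a median log2 fold change of -0.14. The median over all genes tested was 0.0043, with 49.1% of them below 0.

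The floxed genes checked the labels. Smarcc2 fell to 56.9% of control (462 ± 25.8 against 263 ± 26.0 CPM, counts per 1000000 counts of the library, mean ± SD, n = 4 per group; edgeR adjusted p = 0.00267), and Smarcc1 fell to 69.2% (148 ± 11.6 against 102 ± 13.7 CPM; edgeR adjusted p = 0.0348). Libraries held 17958641 to 35191912 counts, and the scarcest member, Cntn4, had 117 counts in its lowest library. Mitochondrial genes took 6.87% of the counts of control 2 and 6.15% of dcKO_Nex-Cre 4, against 2.33% to 4.24% in the other 6. Xist, the RNA of the inactive X chromosome, was at 1877 CPM in control 2 and 917 CPM in dcKO_Nex-Cre 2 and at 0.841 to 8.43 CPM in the other 6. In dcKO_Nex-Cre 4 the 842 genes that span over 200 kb at a mean of over 100 counts had a median deviation of -0.17 from their own group's median (log2 of CPM + 0.5). The other 7 libraries had -0.05 to 0.10. Of the 10 members, 7 span over 200 kb. Between the groups, the 956 tested genes that span over 200 kb had a median log2 fold change of 0.0412. Marker lists were measured in the same libraries. Of 8 excitatory neuron markers, 2 fell: Neurod6 to 60.0% of control (edgeR adjusted p = 0.0192) and Emx1 to 65.9% (edgeR adjusted p = 0.0332). The list summed to 1358 to 1630 CPM in control and 1031 to 1364 CPM in dcKO_Nex-Cre. Neurod6, with means of 645 CPM in control and 387 CPM in dcKO_Nex-Cre, is part of these sums. It is also called Nex, the name of the Cre driver, and any effect of the Cre allele on its level was not tested. Among 7 deep-layer and subplate markers Cplx3 rose past the threshold, while Fezf2 was at 68.2% of control (edgeR adjusted p = 0.149) and Nr4a2 at 68.5%, and the list summed to 469 to 519 CPM in control and 366 to 611 CPM in dcKO_Nex-Cre. All 5 oligodendrocyte precursor markers had estimates above 0, 4 of them at an unadjusted p under 0.05 and Cspg4 past the threshold, and they summed to 173 to 252 and 252 to 308 CPM. Of 5 striatal markers Ppp1r1b alone passed, higher. No marker of upper-layer, inhibitory or Cajal-Retzius neurons, radial glia, myelinating oligodendrocytes, microglia, endothelium, choroid plexus or thalamus passed. Below the threshold, the microglial P2ry12 was at 67.0% of control (edgeR adjusted p = 0.0596) and the radial glial Fabp7 at 70.9% (edgeR adjusted p = 0.113). The microglia list had 2 estimates below 0 and 3 above, and the radial glia and astrocyte list 4 below and 3 above. In a bulk sample, fewer cells of a type and less RNA per cell cannot be told apart.

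The contactins Cntn6 and Cntn5, close relatives with neuronal expression, had estimates of opposite sign. The Cntn6 gene (ENSMUSG00000030092) lies at chr6:104492790-104863406 on the plus strand of mm10. Its level was 33.3, 21.3, 35.6 and 35.1 CPM in control 1 to 4. In dcKO_Nex-Cre 1 to 4 it was 19.9, 13.7, 21.3 and 17.0 CPM. Control 1, 3 and 4 were well above every dcKO_Nex-Cre library, and control 2 was level with the highest of them: the groups did not overlap, but by a gap of 21.35 against 21.33 CPM that the scaling to library size sets. Non-overlapping groups in this direction were found for 4.01% of all genes tested.

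The mean of Cntn6 was 31.3 ± 6.72 CPM in control and 18.0 ± 3.38 CPM in dcKO_Nex-Cre (SD, n = 4 each). This was a log2 fold change of -0.80 with SE 0.18 and a 95% interval of -1.19 to -0.42 (edgeR adjusted p = 0.0641). The unadjusted edgeR value was p = 0.000783, and the exact two-sided permutation test over the 70 regroupings of the libraries gave p = 0.0286, the smallest that 4 against 4 can give. With counts scaled to library totals alone, no member was under 0.05 by permutation. Over 17 alternative fits the log2 fold change ranged from -0.94 to -0.69 and the adjusted p from 0.00152 to 0.212, with 5 fits under 0.05. Among these were the DESeq2 Wald test (3.16% of all genes called) and 3 fits that left out control 2. Leaving out control 2 was the 1 of 8 single-library omissions that brought it under 0.05 (log2 fold change -0.94, edgeR adjusted p = 0.0215; 0.527% of all genes called). The lowest Cntn6 library of each group was the one with Xist, and without those 2 libraries the log2 fold change was -0.84 (edgeR adjusted p = 0.0246; 0.246% of all genes called). Within lane tag 2, which holds the 4 controls and dcKO_Nex-Cre 1 and 2, it was -0.90 (edgeR adjusted p = 0.0837). The excitatory marker Emx1 fell in the same libraries by 0.60 on the log2 scale, and Neurod6, the gene that names the Cre driver, by 0.74. Their part in the Cntn6 value was not tested.

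Cntn5 (ENSMUSG00000039488) lies at chr9:9660891-10904775 on the minus strand. Its level was 15.8, 11.1, 15.8 and 14.4 CPM in control and 19.1, 15.4, 21.0 and 16.3 CPM in dcKO_Nex-Cre. The groups overlapped: dcKO_Nex-Cre 2 lay below 2 of the controls, and the other 3 lay above all of them. The means were 14.3 ± 2.22 and 17.9 ± 2.56 CPM (SD, n = 4 each), a log2 fold change of 0.33 with SE 0.14 and a 95% interval of 0.02 to 0.63, which did not pass adjustment (edgeR p = 0.0365, adjusted p = 0.329; exact permutation p = 0.0857). In 17 alternative fits it stayed between 0.24 and 0.40 and the adjusted p between 0.113 and 0.621. Cntn5 shares 290 exon bases with Gm32710 on the opposite strand, which had a mean of 8.0 counts against 389 for Cntn5.

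**Figure D1:**
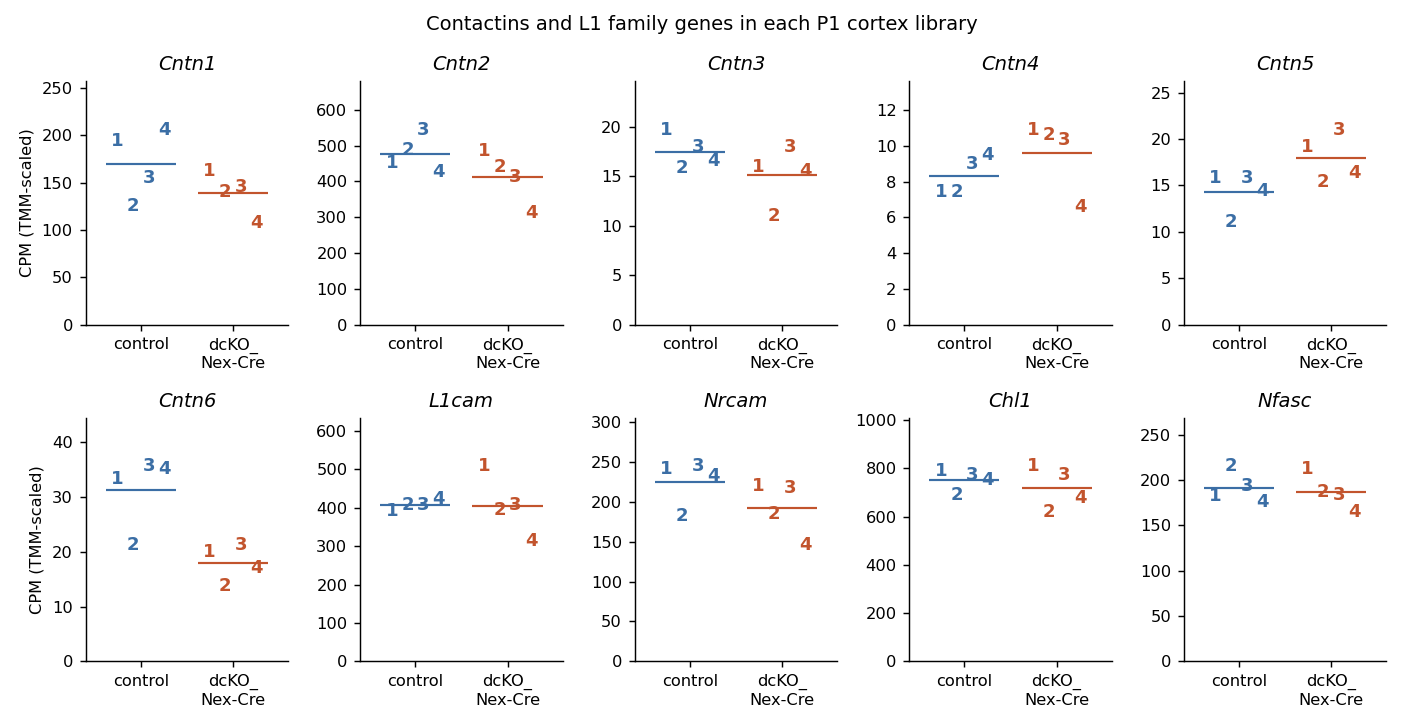
Level of each member in each P1 cortex library, in TMM-scaled CPM, on linear axes from 0. Each digit is the replicate number of 1 library (blue, control; orange, dcKO_Nex-Cre) and each line is a group mean; Cntn6 in control 2 (21.3 CPM) lies with the dcKO_Nex-Cre libraries, and control 1, 3 and 4 lie at 33.3 to 35.6 CPM.

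The reads of Cntn6 and Cntn5 can be set against each other within a library, which removes the scaling between libraries. This pair was chosen after its values were seen, so the share is a description, with no test. Cntn6 took 67.9% of the summed Cntn5 and Cntn6 reads in control 1 (95% Wilson interval 65.1 to 70.6). It took 65.9% in control 2 (62.0 to 69.6), 69.3% in control 3 (66.6 to 71.8) and 70.8% in control 4 (68.1 to 73.4). In dcKO_Nex-Cre 1 to 4 the shares were 51.0% (48.4 to 53.7), 47.1% (43.6 to 50.7), 50.4% (47.4 to 53.5) and 51.0% (47.0 to 55.0). The controls, control 2 included, were all above the dcKO_Nex-Cre libraries, and no interval of one group reached an interval of the other. The sums were 592 to 1344 reads, and the intervals cover counting error only.

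**Figure D2:**
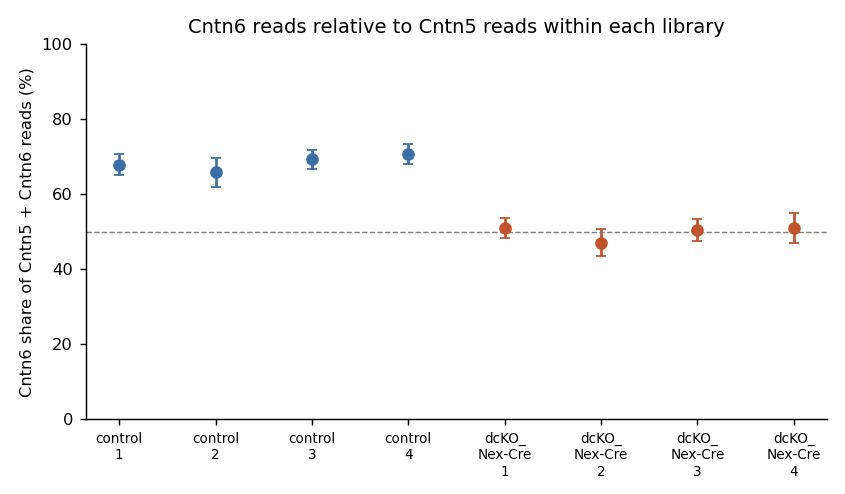
Percent of the summed Cntn5 and Cntn6 reads that were Cntn6, in each library, with 95% Wilson intervals for counting error (blue, control; orange, dcKO_Nex-Cre; dashed line, equal reads). The controls lie at 65.9% to 70.8% and the dcKO_Nex-Cre libraries at 47.1% to 51.0%.

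Promoter sequence is shown for Cntn5 and Cntn6, the members with the lowest p in each direction, and for Cntn3, whose window held no CpG. RefSeq windows (GRCm38.p6, the build named mm10) of 300 bases, 250 before the start and 50 after, were found for all 10 members. Cntn1 had 3 such windows and Cntn4, Cntn5, L1cam and Nfasc had 2 each, and only 1 per gene is described. The Cntn5 window held 26 CpG dinucleotides, the Cntn6 window 4 and the Cntn3 window 0, where the median of 32851 windows in the table was 7. The first line gives the 250 bases before the Cntn5 start, chr9:10904776-10905025 on the minus strand, with CpG in capitals. The next line gives the same stretch for Cntn3, chr6:102464668-102464917 on the minus strand, at a RefSeq start that lies 108 kb inside the GENCODE gene. The last line gives 30 bases of the Cntn6 window, chr6:104492898-104492927 on the plus strand, with the letters CAGCTG, an E-box, in capitals.
Cntn5: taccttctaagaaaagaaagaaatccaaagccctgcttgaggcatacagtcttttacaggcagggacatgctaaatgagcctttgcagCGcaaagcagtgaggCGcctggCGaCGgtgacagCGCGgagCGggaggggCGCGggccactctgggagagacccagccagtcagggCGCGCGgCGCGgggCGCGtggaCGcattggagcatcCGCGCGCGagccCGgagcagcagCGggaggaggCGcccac
Cntn3: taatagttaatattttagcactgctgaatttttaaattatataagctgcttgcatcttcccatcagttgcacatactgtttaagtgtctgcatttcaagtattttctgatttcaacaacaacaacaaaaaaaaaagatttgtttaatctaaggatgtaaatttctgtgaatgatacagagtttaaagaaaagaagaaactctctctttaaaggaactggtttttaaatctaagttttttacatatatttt
Cntn6: gaatggCAGCTGctccCAGCTGcctgagtc

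The printed Cntn5 stretch holds 24 CpG, and that of Cntn3 holds none. Of the other members, Nrcam had 37 CpG in its window, L1cam 22, Chl1 and Cntn2 13 each, Cntn1 9, Nfasc 7 and Cntn4 4. CAGCTG, which reads the same on both strands, occurred 2 times in the Cntn6 window and 1 time in that of Cntn4, and in 16.3% of all windows. GGGCGG, the GC box, was found on either strand in the windows of Cntn5, L1cam, Nrcam and Nfasc and in 35.7% of all windows. TGANTCA (7.81% of windows) and TATAAA (13.6%) were in none of the members' windows described here. These letters describe the windows and are not binding sites measured here. The windows of Cntn4, L1cam and Nfasc lie 441, 15.3 and 34.5 kb from the GENCODE gene start, so another start of those genes was not searched.

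Cntn1 and Cntn2, the contactins of axons and of the myelinated nerve fiber, were lower in the dcKO_Nex-Cre mean without passing the test. Cntn1 (ENSMUSG00000055022, chr15:92051165-92341967, plus strand) was at 194, 125, 155 and 206 CPM in control and 162, 140, 146 and 108 CPM in dcKO_Nex-Cre. The groups overlapped, with control 2 below 3 of the dcKO_Nex-Cre libraries. Its log2 fold change was -0.29 with SE 0.16 (95% interval -0.64 to 0.06, edgeR adjusted p = 0.446). Cntn2 (ENSMUSG00000053024, also called TAG-1, chr1:132509427-132543256, minus strand) was at 452, 488, 544 and 426 CPM in control and 484, 440, 411 and 311 CPM in dcKO_Nex-Cre. These groups also overlapped, and dcKO_Nex-Cre 4 was the lowest of the 8. The log2 fold change of Cntn2 was -0.22 with SE 0.13 (95% interval -0.50 to 0.07, edgeR adjusted p = 0.485).

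Cntn3 and Cntn4 are neuronal contactins that share a stretch of chromosome 6 with Cntn6 and Chl1. Cntn3 (ENSMUSG00000030075, chr6:102162655-102573101, minus strand) was at 19.7, 15.8, 18.0 and 16.5 CPM in control. In dcKO_Nex-Cre it was at 15.9, 11, 18.0 and 15.5 CPM, within the control range in 2 libraries and lowest in dcKO_Nex-Cre 2. The log2 fold change was -0.21 with SE 0.14 (95% interval -0.53 to 0.10, edgeR adjusted p = 0.524). Cntn4 (ENSMUSG00000064293, chr6:105677660-106699310, plus strand) was at 7.42, 7.44, 9.01 and 9.47 CPM in control and 10.9, 10.6, 10.3 and 6.57 CPM in dcKO_Nex-Cre. In dcKO_Nex-Cre 1 to 3 it was above every control, and in dcKO_Nex-Cre 4 below every control. Over all libraries its log2 fold change was 0.21 with SE 0.17 (95% interval -0.16 to 0.58, edgeR adjusted p = 0.601). Without dcKO_Nex-Cre 4 it was 0.35 (edgeR adjusted p = 0.101).

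The log2 fold changes of the 4 L1 family genes were nearer 0 than that of Cntn6, as were those of the other contactins. Chl1 (ENSMUSG00000030077, chr6:103510586-103750211, plus strand), close homolog of L1, was at 791, 691, 772 and 753 CPM in control and 808, 621, 773 and 679 CPM in dcKO_Nex-Cre. The groups overlapped, and in each the lowest library was replicate 2. Its log2 fold change was -0.06 with SE 0.10, and the 95% interval of -0.28 to 0.15 does not reach the -0.80 of Cntn6 (edgeR adjusted p = 0.805). L1cam (ENSMUSG00000031391, chrX:73853778-73896105, minus strand), the founder of the family, was at 390, 406, 407 and 423 CPM in control. In dcKO_Nex-Cre it was at 507, 395, 406 and 313 CPM. Its means were nearly the same, 407 ± 13.6 and 405 ± 79.2 CPM (SD, n = 4 each), but dcKO_Nex-Cre 1 lay above and dcKO_Nex-Cre 4 below every control. The log2 fold change was -0.0039 with SE 0.12 (95% interval -0.28 to 0.27, edgeR adjusted p = 0.991), and leaving out single libraries moved it between -0.13 and 0.11. L1cam shares 100 exon bases with Arhgap4 on the same strand, which had a mean of 64.5 counts against 9816 for L1cam.

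Nrcam and Nfasc encode the L1 family proteins of the axon initial segment and the node of Ranvier. Nrcam (ENSMUSG00000020598, chr12:44328885-44601964, plus strand) was at 241, 182, 244 and 232 CPM in control and 220, 185, 217 and 146 CPM in dcKO_Nex-Cre. Control 2 lay with the dcKO_Nex-Cre libraries, and the other 3 controls lay above them all. The log2 fold change was -0.23 with SE 0.14 (95% interval -0.53 to 0.07, edgeR adjusted p = 0.483). Nfasc (ENSMUSG00000026442, chr1:132564690-132741797, minus strand), which encodes neurofascin, was at 182, 215, 194 and 176 CPM in control and 212, 187, 184 and 165 CPM in dcKO_Nex-Cre. Its ranges overlapped nearly in full, with a log2 fold change of -0.03 and SE 0.10 (95% interval -0.24 to 0.17, edgeR adjusted p = 0.895). Nfasc is the neighbor of Cntn2 on chromosome 1, 21.4 kb away on the same strand.

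**Figure D3:**
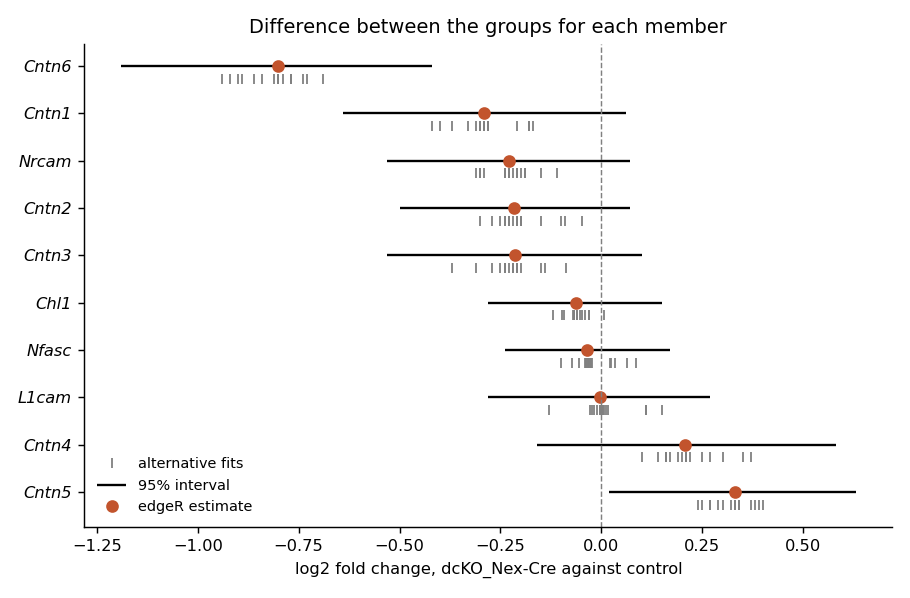
Log2 fold change of each member, dcKO_Nex-Cre against control, with its 95% interval over 4 libraries per group (orange points and black lines) and the values of 17 alternative fits (grey ticks). The ticks of Cntn6 lie between -0.94 and -0.69, and those of L1cam, Nfasc and Chl1 lie on both sides of 0.

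Several members shared the libraries in which they were low. Control 2 was the lowest control for 6 of the 10 (Cntn1, Cntn3, Cntn5, Cntn6, Nrcam and Chl1). DcKO_Nex-Cre 4 was the lowest of its group for 6 (Cntn1, Cntn2, Cntn4, L1cam, Nrcam and Nfasc), and dcKO_Nex-Cre 2 for the other 4. DcKO_Nex-Cre 1, the deepest library, was the highest of its group for 7. With control 2 and dcKO_Nex-Cre 4 both left out, 5 members (Cntn1, Cntn4, Cntn5, Cntn6 and Nrcam) had an unadjusted p under 0.05, where 28.4% of all genes tested then did. In that fit Cntn6 was the only member past the threshold (log2 fold change -0.92, edgeR adjusted p = 0.00719), and 11% of all genes tested passed it. The adjusted p of Cntn1 was then 0.0706, that of Nrcam 0.102, that of Cntn4 0.136 and that of Cntn5 0.140. The part of RNA quality in these values was not tested.

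Per kilobase of exon, the members spanned a 62.3-fold range in control cortex. Chl1 was highest at 61.2 ± 3.52 CPM per kb (SD, n = 4), then L1cam at 55.3 ± 1.85 and Cntn2 at 51.3 ± 5.46 CPM per kb, and these neighbors in the order overlapped. After a 2.83-fold step with no overlap came Cntn1 at 18.1 ± 3.92, Nrcam at 16.8 ± 2.16 and Nfasc at 13.5 ± 1.22 CPM per kb, again overlapping. A further step of 2.8-fold, with no overlap, led to Cntn6 at 4.82 ± 1.03, Cntn5 at 3.15 ± 0.49 and Cntn3 at 2.60 ± 0.26 CPM per kb. In this trio the neighbors overlapped. Cntn4 was lowest at 0.982 ± 0.125 CPM per kb, 2.65-fold below Cntn3 and with no overlap. The L1 family thus lay in the upper 6 places, with Cntn2 and Cntn1, and Cntn3 to Cntn6 took the lower 4.

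In dcKO_Nex-Cre the order of 8 members was as in control. Cntn5 at 3.96 ± 0.564 CPM per kb took the place above Cntn6 at 2.77 ± 0.52 CPM per kb (SD, n = 4 each). That exchange depends on the length used: by the longest annotated transcript Cntn6 stayed above Cntn5 (4.86 against 4.28 CPM per kb), and Nrcam stood above Cntn1 in both groups. Whole tissue counts give one level for all cells, so these levels are not those of the projection neurons.

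**Figure D4:**
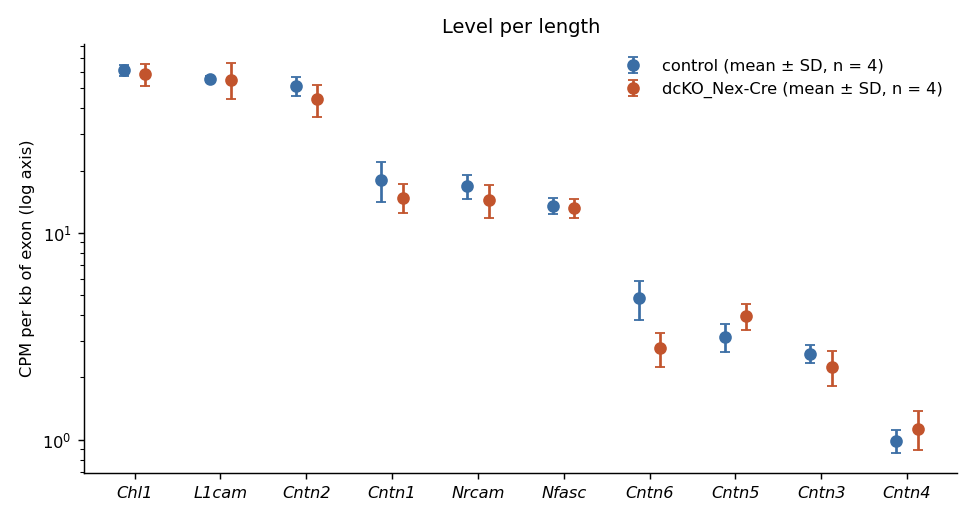
Level of each member in CPM per kilobase of exon, on a log axis, in control and dcKO_Nex-Cre cortex (mean ± SD, n = 4 libraries each), ordered by the control mean. Chl1, L1cam and Cntn2 form the top trio, Cntn1, Nrcam and Nfasc the middle, and Cntn4 lies lowest at 0.982 in control.

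Chl1, Cntn6 and Cntn4 follow one another on chromosome 6, with Cntn3 before them, over 4.54 Mb from the start of Cntn3 to the end of Cntn4. The gaps are 937 kb from Cntn3 to Chl1, 743 kb from Chl1 to Cntn6 and 814 kb from Cntn6 to Cntn4. Beside Cntn6, the only tested gene between Chl1 and Cntn4 was Gm15631, a lincRNA that starts 78 bases from Cntn4 on the opposite strand. Gm15631 had a mean of 37.4 counts and a log2 fold change of -0.60 with SE 0.28 (edgeR adjusted p = 0.374). The 4 adhesion genes of the stretch thus had log2 fold changes of -0.21 for Cntn3, -0.06 for Chl1, -0.80 for Cntn6 and 0.21 for Cntn4, so 3 lay below 0 and 1 above.

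The known partners of both families were read from the same fit. Of 48 partner genes, 0 passed the threshold, 4 were lower and 2 higher at an unadjusted p under 0.05, and the median log2 fold change was 0.07. The unadjusted shares over all genes tested were 7.05% lower and 6.59% higher. Among 14 extracellular partners of contactins, Vcan came closest. Vcan, which encodes the matrix proteoglycan versican, was at 222, 218, 207 and 221 CPM in control and 269, 290, 290 and 260 CPM in dcKO_Nex-Cre. Every dcKO_Nex-Cre library was above every control, as for 3.99% of all genes tested in this direction. Its log2 fold change was 0.35 with SE 0.07, and it narrowly missed the threshold (edgeR adjusted p = 0.0503). It was under the threshold with DESeq2 size factors, the DESeq2 Wald test, limma-voom and the stricter count filter. Tnr, tenascin-R and a ligand of Cntn1, had a log2 fold change of 0.24 with SE 0.14, and Notch1, a receptor that contactins bind, 0.17 with SE 0.10.

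The 7 genes of the Caspr family, transmembrane proteins that form complexes with contactins, had a median log2 fold change of 0.01. Cntnap2, the most counted of them, was at 125 ± 6.41 CPM in control and 125 ± 11.7 CPM in dcKO_Nex-Cre (SD, n = 4 each). It was named after its values were seen, as the family member with the most counts. Cntnap5a had a log2 fold change of -0.46 with SE 0.17 (edgeR adjusted p = 0.268) and Cntnap1, the partner of Cntn1 at the paranode, -0.81 with SE 0.31 at a mean of 50.6 counts (edgeR adjusted p = 0.286). Both overlapped between groups, and Cntnap3 had 0.21 with SE 0.12.

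The list of L1 co-receptors and proteases held 11 genes with a median of -0.05. Adam17, a protease that sheds L1, was at 27.2 ± 0.51 CPM in control and 32.4 ± 2.89 CPM in dcKO_Nex-Cre (log2 fold change 0.25, SE 0.08, edgeR adjusted p = 0.216). Its groups did not overlap, as for 3.99% of all genes tested in this direction. Sema3b and Sema3a, repellents read by neuropilin receptors together with L1 family proteins, had -0.45 with SE 0.18 and -0.25 with SE 0.10 (edgeR adjusted p = 0.294 and 0.307). The 16 cytoplasmic partners, ankyrins, spectrins, doublecortin and others that hold or move L1 family proteins, had 12 estimates above 0 and 4 below, a median of 0.07 and none at an unadjusted p under 0.05. Among them were Ank1 (0.21, SE 0.10) and Sptbn4 (-0.16, SE 0.09), and ankyrin-G, Ank3, of the axon initial segment, was at 0.07 with SE 0.12.

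Beyond these families, 33 of 34 other neuronal immunoglobulin adhesion genes were tested, and 0 passed the threshold. Of these, 2 were lower and 2 higher at an unadjusted p under 0.05, shares near the 7.05% and 6.59% of all genes tested, and the median log2 fold change was 0.10. Igsf21, which encodes a synaptic adhesion protein, was at 32.3, 25.1, 29.8 and 31.2 CPM in control and 20.4, 22.6, 23.2 and 19.4 CPM in dcKO_Nex-Cre. The groups did not overlap, as for 4.01% of all genes tested in this direction, and the log2 fold change of -0.47 with SE 0.10 stood close to the threshold, as that of Cntn6 did (edgeR adjusted p = 0.0607). Alcam, a homophilic adhesion molecule of axons, had 0.35 with SE 0.10 and no overlap, as for 3.99% of all genes tested in this direction (edgeR adjusted p = 0.148). Thy1, a GPI-anchored protein of mature neurons, had -0.66 with SE 0.20 and overlapping groups (edgeR adjusted p = 0.175).

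**Figure D5:**
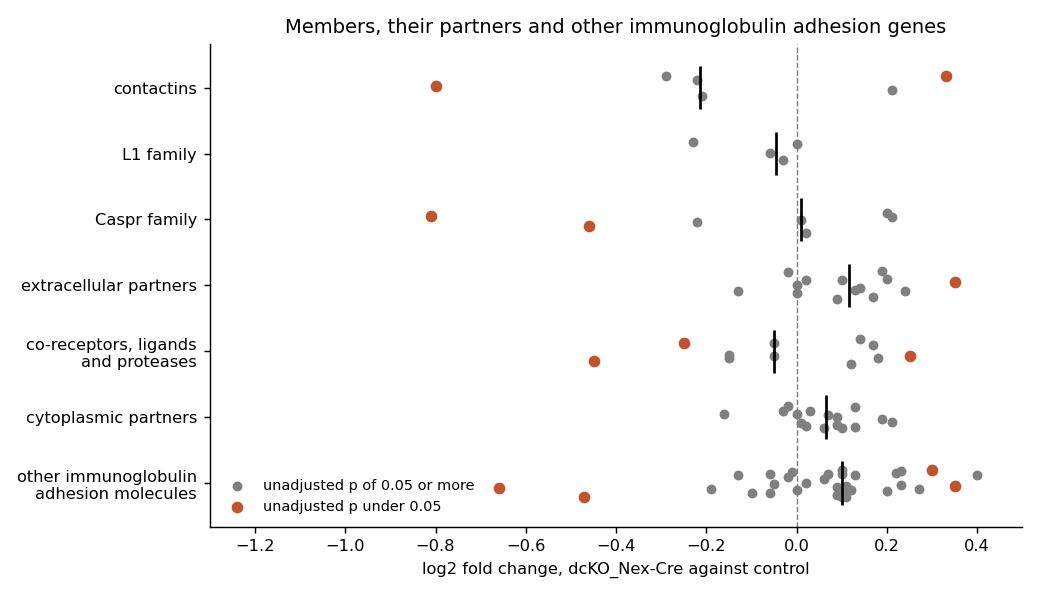
Log2 fold change, dcKO_Nex-Cre against control, of every tested gene of the member families, the 4 partner lists and the other neuronal immunoglobulin adhesion genes (points; orange, unadjusted edgeR p under 0.05) with each list's median (black lines). None of the points passed adjustment over all genes, and Cntn6 at -0.80 and Cntnap1 at -0.81 lie farthest from 0.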

How the data were processed

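Cortex was dissected at P1, RNA was extracted with TRIZOL and libraries were made with the Illumina TruSeq RNA v2 kit. The authors deposited 1 table of raw counts per gene for each library, and the submitters' processing notes name mm10. The aligner, the counting tool, the annotation and the use of strand are not given in the sources used here. The labels give control and mutant animals, and the Cre driver is from the study's methods. The library lane is a tag in the deposited names: dcKO_Nex-Cre 3 and 4 carry another tag than the other 6 libraries, with no control beside them.

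Counts were tested with edgeR 4.0.16 in R 4.3.3 (filterByExpr, TMM, robust quasi-likelihood F test, Benjamini-Hochberg over 16287 genes, threshold 0.05), control against dcKO_Nex-Cre, two-sided, with 4 libraries per group. SE is the log2 fold change over the root of F, and 95% intervals use the t quantile of the fit's degrees of freedom. CPM are TMM-scaled, and length is the exon union of GENCODE M21, which matched 48349 of 48709 genes. Single members were also tested by exact permutation over 70 regroupings. Alternatives were DESeq2 1.42.0 (size factors and Wald test), limma 3.58.1 (voom), other filters, a replicate block, lane tag 2 alone and omission of libraries. Omitting control 2 together with dcKO_Nex-Cre 4 or 2, and the alternatives of the permutation test, were chosen after seeing the data.

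The members and lists were chosen with earlier results of these data known. Named genes are the 10 members, Smarcc1 and Smarcc2, the genes between Chl1 and Cntn4, and from each partner or adhesion list every gene past the threshold, otherwise at most 3 with the smallest p. One gene that this rule names is not reported here. Cntnap2, Ank3, the markers given by name and, in the closing section, Lrrn1 were named after their values were seen. Where nothing says that samples are separate litters, p-values measure the spread between these libraries. No 2 libraries agreed within sampling noise (chi-square per degree of freedom at least 3.77). The fit was tested on simulated counts before use. Depth was 17958641 to 35191912 counts, and intervals on shares cover counting error only.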

Additional observations from a re-analysis of the deposited data

Results flagged for a closer look

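In 56 groups of 4 libraries tested for a library far from the others, 2 were found, where chance at 1 in 20 gives 2.8. Cntn6 in control 2 was at 21.3 CPM, and the other controls were at 33.3 to 35.6 CPM. Cntn4 in dcKO_Nex-Cre 4 was at 6.57 CPM, and the other dcKO_Nex-Cre libraries were at 10.3 to 10.9 CPM. These are the 2 libraries with the highest mitochondrial share, 6.87% and 6.15%, and the part of that share was not tested.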

How the results depend on the processing

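Of 170 values of the members under 17 alternatives, 151 kept direction and side of the threshold, 5 passed it (all Cntn6, lower) and 14 changed sign. The sign changes were near 0: L1cam was at 0.007 without a filter, 0.15 in lane tag 2, 0.003 without control 2, 0.016 without control 4, 0.012 without dcKO_Nex-Cre 2 and 0.11 without dcKO_Nex-Cre 4. With control 2 left out together with dcKO_Nex-Cre 4 or 2, L1cam was at 0.11 and 0.002 and Nfasc at 0.086 and 0.021. Nfasc was at 0.063 in lane tag 2, 0.033 without control 2 and 0.025 without dcKO_Nex-Cre 4, and Chl1 at 0.006 without dcKO_Nex-Cre 2. With 1 library left out, L1cam ranged from -0.13 to 0.11, Chl1 from -0.12 to 0.006 and Nfasc from -0.10 to 0.033. Over all genes, 144 calls became 494 by the DESeq2 Wald test, 259 without a filter, 248 in lane tag 2, 1794 without control 2 and dcKO_Nex-Cre 4, 40 without control 2 and dcKO_Nex-Cre 2, and 18 (without control 1) to 1278 (without dcKO_Nex-Cre 4) when 1 library was left out. The cause was not tested. Members past the threshold went from 0 to 1 (Cntn6) by the Wald test (adjusted p = 0.00152) and in both fits without 2 libraries, and ranged from 0 to 1 with 1 library left out. Members at an unadjusted p under 0.05 numbered 5 without control 2 and dcKO_Nex-Cre 4, where the share over all genes tested was 28.4%. With 1 library left out they numbered 1 to 3, and the shares over all genes tested were 9.62% to 28.2%. By exact permutation 1 member, Cntn6, was under 0.05, and 0 with library totals alone, and 0 to 1 with 1 library left out (0 without dcKO_Nex-Cre 1, 3 or 4).

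Partner genes past the threshold went from 0 to 1 (Vcan) under DESeq2 size factors, the Wald test, limma-voom and at least 10 counts in every sample, to 3 (Adam17, Sema3a and Vcan) without control 2 and dcKO_Nex-Cre 4, and to 0 to 2 with 1 library left out (2 without dcKO_Nex-Cre 4). Other immunoglobulin adhesion genes went from 0 to 3 by the Wald test (Alcam, Igsf21 and Thy1), 1 without a filter (Igsf21), 1 in lane tag 2 (Kirrel3), 8 without control 2 and dcKO_Nex-Cre 4, and 0 to 6 with 1 library left out (6 without dcKO_Nex-Cre 4). The shares of all genes past the threshold were 11% without control 2 and dcKO_Nex-Cre 4, 7.73% without dcKO_Nex-Cre 4, 3.16% by the Wald test and 1.48% in lane tag 2. On chromosome 6, 0 genes became 1 (Cntn6) by the Wald test and without control 2 and dcKO_Nex-Cre 2, 2 (Cntn6 and Lrrn1) without control 2 and dcKO_Nex-Cre 4, and 0 to 1 with 1 library left out. In per-length order, 8 of 10 members kept their place by longest transcript and 10 with library totals.

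The labels number replicates 1 to 4 in both groups, but same-numbered libraries did not deviate together (r from -0.138 to 0.135). The main fit therefore did not pair them, though weak correlations of so few libraries cannot exclude a pairing. With the replicate block 54 genes passed, among them 1 member and 1 chromosome 6 gene, both Cntn6 (log2 fold change -0.79, edgeR adjusted p = 0.0246), and the block changed no other member's call. Not every library correlated best with its own number: control 2 correlated best with dcKO_Nex-Cre 4 (r = 0.371).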

Other observations

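The stretch of chromosome 6 from the start of Cntn3 to 1 Mb past the end of Cntn4 held 38 genes of the tables, of which 8 were tested and 4 were not members. Lrrn1, a neuronal leucine-rich repeat gene downstream of Cntn4, had a log2 fold change of 0.27 with SE 0.09 (edgeR adjusted p = 0.216). It was chosen after its values were seen. Crbn and Trnt1, between Cntn4 and Lrrn1, both had -0.11 with SE 0.10.

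Set against Chl1 reads within each library, Cntn6 took 4.04% of the summed reads in control 1 (95% Wilson interval 3.77 to 4.34), 2.99% in control 2 (2.72 to 3.30), 4.40% in control 3 (4.12 to 4.70) and 4.45% in control 4 (4.16 to 4.76). In dcKO_Nex-Cre 1 to 4 it took 2.40% (2.23 to 2.59), 2.16% (1.95 to 2.39), 2.69% (2.47 to 2.92) and 2.44% (2.19 to 2.73). Control 2 was the lowest control on this scale as well, and its interval overlapped that of dcKO_Nex-Cre 3.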
